A study of Mus musculus with 6 samples.

Results

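The interferon-stimulated genes are a set of 45 listed mouse genes whose transcripts are known to increase when cells respond to interferon. They were followed here in 2 populations of bone marrow myeloid cells. Each gene was represented by its probe set with 1 gene symbol and the highest mean over the 6 arrays, out of 18193 genes that the arrays represent in this way. Of the 45 genes, 42 had such a probe set and 40 were tested, among 12739 tested genes in all. Oas1g and Ifi44 had no such probe set, and Isg15 was represented by a probe set that also names another gene, so no value is given for these 3. Mx2 and Iigp1 were too low on all arrays to be tested. The cells came from the femurs and tibias of Hdc-GFP mice on a C57BL/6 background, in which green fluorescent protein marks cells that use Hdc, the gene of the histamine-making enzyme. All mice are labelled female, and no age or treatment is given in the labels. The Gr1hi group (3 arrays) held cells positive or bright for GFP, positive for CD11b and with high Gr1. The Gr1lo group (3 arrays) is titled with the same GFP and CD11b gates and with low Gr1, although the description of its replicate 3 writes the reporter in a way that can also be read as GFP-negative. The labels do not say whether replicates are separate animals or pools, so p-values measure the spread between these samples, which may be technical.

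Interferons bind receptors at the cell surface, and receptor-bound JAK kinases then phosphorylate STAT transcription factors. Type I interferons act largely through a complex that contains IRF9 and binds a DNA motif called the interferon-stimulated response element, while interferon gamma acts largely through gamma-activated sites. The induced genes encode sensors of foreign nucleic acid, enzymes and GTPases that block viruses and intracellular microbes, and regulators that amplify or end the response. Many blood cells hold part of this program at a basal level without infection, and neutrophils are among the cells that respond to interferon.

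Values are log2 probe set values, and each difference is Gr1hi minus Gr1lo on that scale. A gene was called where the limma test gave an adjusted p under 0.05. Of 11 neutrophil markers 4 rose (36.4%, against 24.6% of all tested genes), 2 fell (18.2%, against 31.8%) and 5 did not pass. S100a9, a calcium-binding protein of neutrophils, averaged 14.99 ± 0.03 in Gr1hi and 14.89 ± 0.06 in Gr1lo (SD, n = 3 each) and was among those that did not pass. The markers of later neutrophil stages Cxcr2, Csf3r, Mmp8 and Mmp9 rose by 2.99, 2.68, 2.46 and 2.01. The genes of primary granules, made early in the lineage, fell: Elane averaged 4.62 ± 0.61 in Gr1hi and 11.61 ± 0.35 in Gr1lo, and Mpo 9.93 ± 0.59 in Gr1hi and 13.91 ± 0.14 in Gr1lo. These markers thus moved between the groups together with the interferon-stimulated genes, and their part in the results was not tested. Hdc averaged 12.33 ± 0.30 in Gr1hi and 10.86 ± 0.12 in Gr1lo, and Itgam, which encodes CD11b, 12.16 ± 0.11 in Gr1hi and 11.28 ± 0.18 in Gr1lo. No probe set used here names a gene of the Gr1 antigen alone, so the Gr1 gate itself could not be checked. The female label was not borne out on any array. Eif2s3y, a gene of the Y chromosome, lay between 9.91 and 10.66 in Gr1hi and between 9.02 and 9.87 in Gr1lo. Xist, the RNA of the inactive X chromosome, read 10.14 in Gr1hi replicate 3 and 10.95 in Gr1lo replicate 3, and at most 2.43 on the other arrays. The Y-linked transcript was thus present on all 6 arrays, the replicate 3 arrays held both transcripts, and results are also given without these. Background was read from 3 probe sets for a transcript absent from mouse cells, whose highest value was 2.77.

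Most interferon-stimulated genes held more transcript in Gr1hi cells than in Gr1lo cells. Of the 40 tested, 32 were higher, 2 were lower and 6 did not pass the test. The rises ranged from 1.46-fold in Ifih1 to 90.5-fold in Rsad2. Both genes that fell have relatives that rose: Ifit2, of the IFIT family, and Ifi47, of the immunity-related GTPases. Among all tested genes 56.4% were called in either direction. Of all tested genes, 24.6% were called higher and 31.8% lower in Gr1hi, against 80.0% and 5.0% of the tested interferon-stimulated genes. The median difference of the 40 genes was 2.12, against 0.03 over all tested genes. In a mixed population, a change in the share of cells that carry a transcript and a change in the amount per cell cannot be told apart.

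**Figure D1:**
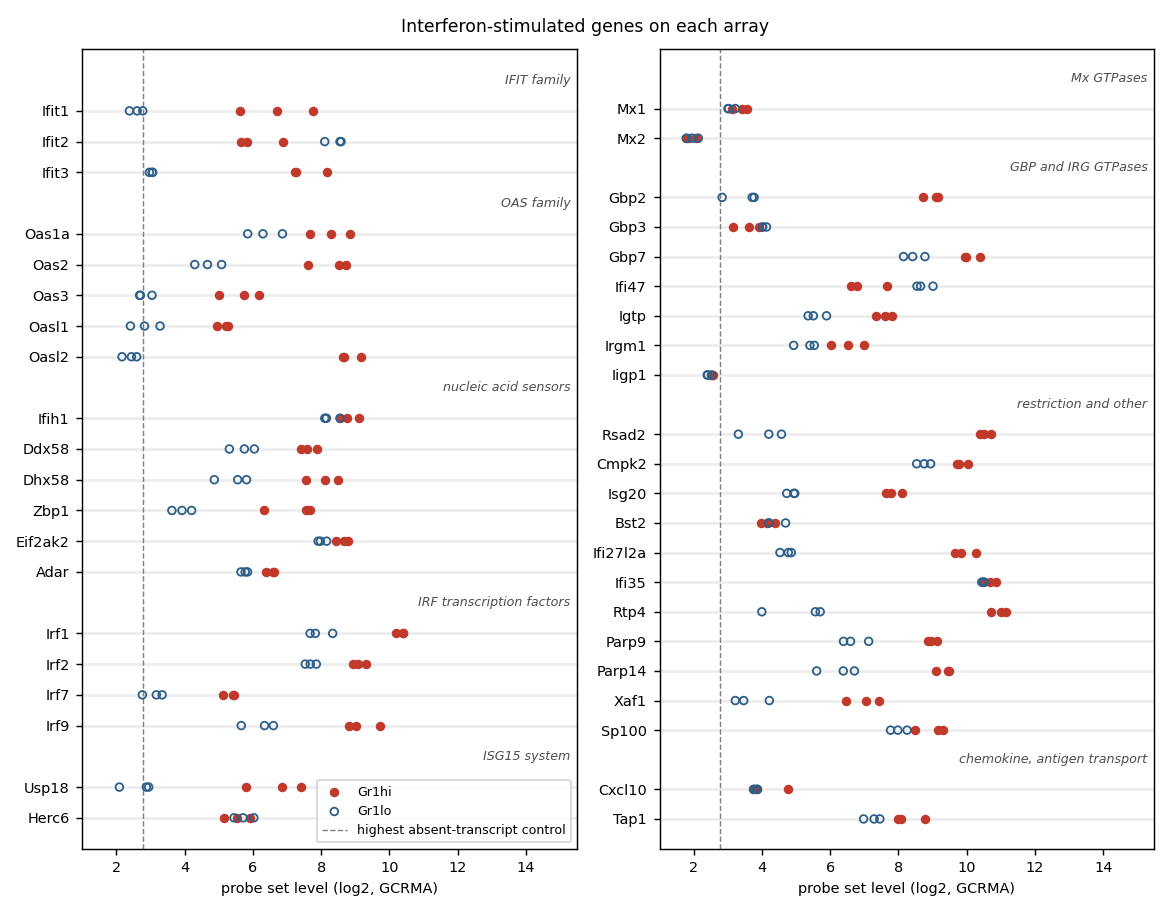
Level of each measured interferon-stimulated gene (log2 probe set value, horizontal axis) on the 3 Gr1hi arrays (filled red) and the 3 Gr1lo arrays (open blue), grouped by role. The dashed line is the highest value of the absent-transcript controls, 2.77, and the Gr1hi points of Rsad2, Oasl2 and Gbp2 lie far to the right of their Gr1lo points while those of Ifit2 and Ifi47 lie to the left.

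Rises of at least 2-fold were seen in 28 of the 40 genes, where 10.6% of all tested genes rose by as much, and rises of at least 4-fold in 21, where 4.16% of all tested genes did. In 32 genes every Gr1hi array lay above every Gr1lo array (30.7% of all tested genes), in 3 every Gr1hi array lay below (34.7%), and in 5 the groups overlapped. In 4 of the genes that rose, Ifit1, Oasl1, Oasl2 and Usp18, at least 1 Gr1lo array was under the level used to choose tested genes. Among the other 36 genes, 28 were higher and 2 lower. Without both replicate 3 arrays, 32 of the 40 were higher and 3 lower. Without Gr1lo replicate 3, the array with the unclear description, 32 were higher and 2 lower, and Hdc read 10.75 on that array, against 10.99 and 10.85 on the other Gr1lo arrays. The scale matters for small differences: when each array was set to a common median of tested genes (median centring) 36 were higher and 2 lower, and when it was set to a common level of the spiked hybridization controls (control centring) 29 were higher and 3 lower. Over all 12739 tested genes 8354 were called higher and 2313 lower under median centring, with a median difference of 0.70, and 1861 higher and 4848 lower under control centring, with a median of -0.23.

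**Figure D2:**
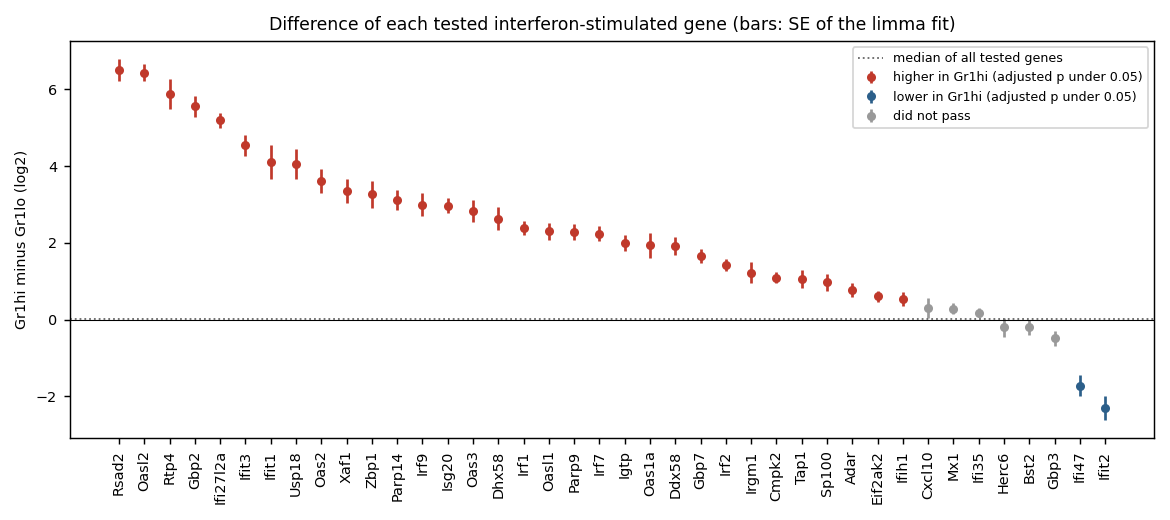
Difference of each of the 40 tested interferon-stimulated genes (Gr1hi minus Gr1lo, log2, vertical axis), ordered by size, with bars of 1 SE from the limma fit. Rsad2 at 6.50 stands at the upper end and Ifit2 at -2.29 at the lower end, and the dotted line marks the median of all tested genes at 0.03.

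The IFIT proteins bind viral or otherwise foreign RNA and limit its translation. Their genes lie in a cluster on chromosome 19, where Ifit2 and Ifit3 are neighbouring protein-coding genes and Ifit1 follows after 3 others, including Ifit3b, a close copy of Ifit3. Ifit1 read 5.61, 6.70 and 7.76 in Gr1hi replicates 1, 2 and 3, against 2.61, 2.38 and 2.77 in Gr1lo replicates 1, 2 and 3. Ifit3 read 7.24, 7.27 and 8.17 in Gr1hi, against 3.04, 3.06 and 2.96 in Gr1lo. Both were thus near background in Gr1lo and well above it on each Gr1hi array, and whether the Ifit3 probe set also detects Ifit3b was not tested. Ifit2 ran the other way, with 5.64, 5.83 and 6.88 in Gr1hi, against 8.55, 8.10 and 8.58 in Gr1lo. The groups did not overlap in any of the 3 genes.

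Ifit1 was higher in Gr1hi by 4.10 (SE 0.45, adjusted p = 3.91e-05), a 17.2-fold difference whose size depends on background, since its Gr1lo mean of 2.59 lay within the absent-transcript level. Ifit3 was higher by 4.54 (SE 0.26, adjusted p = 8.9e-07), a 23.2-fold difference from a Gr1lo level near background. Ifit2 was lower, with a difference of -2.29 (SE 0.31, adjusted p = 1.66e-04), or 4.90-fold. The change of Ifit2 differed from the mean change of Ifit1 and Ifit3 by -6.61 (SE 0.16), and this value ran from -6.73 to -6.54 with each array left out in turn. An exact two-sided permutation test over the 3 Gr1hi and 3 Gr1lo arrays gave p = 0.1, the smallest that this design allows. The contrast was chosen with the direction of these genes known and is a description. Among the Gr1hi arrays replicate 3 was the highest for all 3 genes, Ifit2 included.

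The stretches of 250 bases before the annotated start sites of these genes are shown because they hold different numbers of matches to the interferon-stimulated response element. The motif was searched as GAAA, any 2 bases and GAAA on both strands, where the other strand reads TTTC, any 2 bases and TTTC, and matches are in capitals. The sequences are from RefSeq on build GRCm38.p6 and all run on the plus strand, at chr19:34640639-34640888 for Ifit1, chr19:34583279-34583528 for Ifit3 and chr19:34550444-34550693 for Ifit2.
Ifit1: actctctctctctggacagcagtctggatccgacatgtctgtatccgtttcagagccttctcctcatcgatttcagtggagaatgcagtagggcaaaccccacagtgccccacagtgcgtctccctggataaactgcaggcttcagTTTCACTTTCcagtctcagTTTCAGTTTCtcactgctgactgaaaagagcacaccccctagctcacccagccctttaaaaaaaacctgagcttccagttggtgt
Ifit3: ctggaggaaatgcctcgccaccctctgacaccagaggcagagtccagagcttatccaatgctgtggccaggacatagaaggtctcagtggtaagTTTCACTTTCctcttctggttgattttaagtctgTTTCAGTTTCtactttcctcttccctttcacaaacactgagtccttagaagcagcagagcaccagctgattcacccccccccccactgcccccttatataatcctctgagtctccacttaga
Ifit2: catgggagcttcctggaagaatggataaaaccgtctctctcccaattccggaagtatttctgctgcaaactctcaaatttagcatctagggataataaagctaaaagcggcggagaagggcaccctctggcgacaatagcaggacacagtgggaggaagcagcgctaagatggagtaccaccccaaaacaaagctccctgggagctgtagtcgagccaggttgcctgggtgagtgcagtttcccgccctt
Ifit1 held matches 104 and 85 bases before its start and Ifit3 at 156 and 122 bases. Ifit2 held 0 matches before this start, and 0 in the window of its other annotated start. These letters are thus absent from the windows of Ifit2 used here, which says nothing of sequence outside them or of the factors that bind there. The first Ifit2 window held 1 match to the gamma-activated site (TTC, any 3 bases and GAA), 241 bases before the start, where the windows of Ifit1 and Ifit3 held 0.

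**Figure D3:**
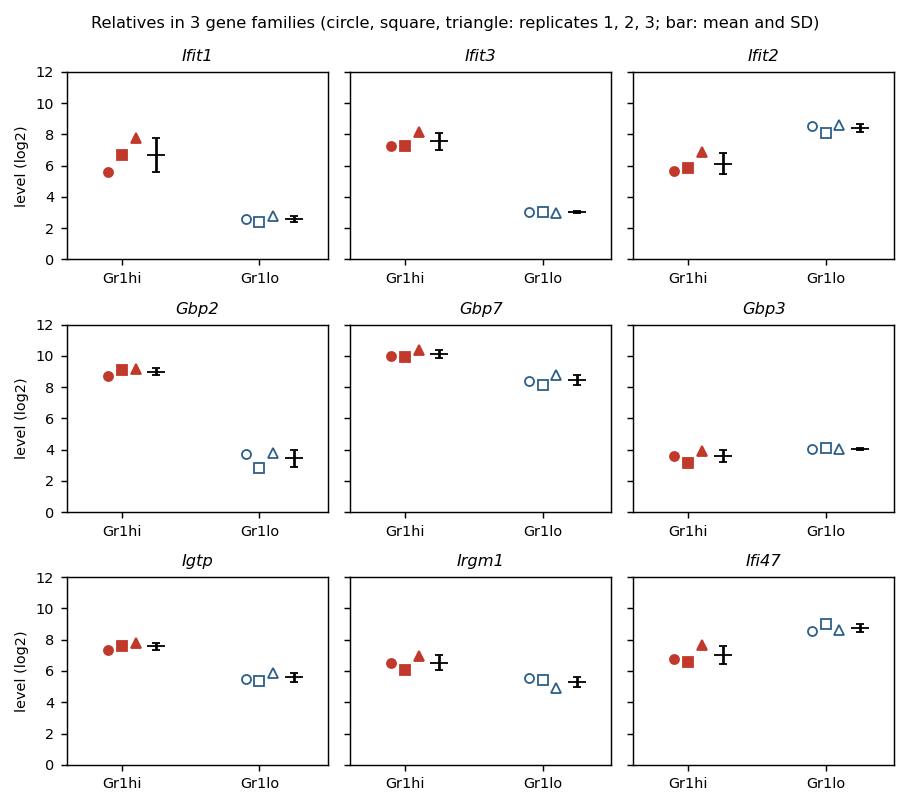
Level on each array (log2, vertical axis) for relatives of 3 families: IFIT genes (upper row), guanylate-binding protein genes (middle row) and immunity-related GTPase genes (lower row), with Gr1hi left of Gr1lo, replicates 1, 2 and 3 as circle, square and triangle, and a bar for mean and SD. In each row the gene on the right, Ifit2, Gbp3 or Ifi47, is lower on every Gr1hi array than on every Gr1lo array, while its relatives are higher.

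The guanylate-binding proteins and the immunity-related GTPases are enzymes that are induced most strongly by interferon gamma in mice and that attack the vacuoles of intracellular microbes. Of the 7 listed genes 4 rose, 1 fell, 1 did not pass and 1 was too low to test. Gbp2 read 8.71, 9.11 and 9.16 in Gr1hi, against 3.72, 2.83 and 3.77 in Gr1lo, a difference of 5.55 (SE 0.28, adjusted p = 3.77e-07), or 46.9-fold. The size of this difference may depend in part on background, since the Gr1lo value of 2.83 lay near the highest absent-transcript value of 2.77. A second Gbp2 probe set differed by 4.62, a size that depends on background, since it read at most 2.54 in Gr1lo. Gbp7 read 9.97, 9.94 and 10.40 in Gr1hi, against 8.42, 8.15 and 8.78 in Gr1lo, a difference of 1.65 (adjusted p = 5.15e-05). These 2 genes share with Gbp3 a cluster on chromosome 3, in which Gbp7 and Gbp3 are neighbours.

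Gbp3 did not follow them. It read 3.61, 3.17 and 3.92 in Gr1hi, against 4.01, 4.13 and 4.02 in Gr1lo, and its difference of -0.49 (SE 0.20) did not pass the test at an adjusted p of 0.0595. The call is close: Gbp3 was lower at an adjusted p of 0.0318 without both replicate 3 arrays and 0.016 without Gr1hi replicate 3, while under median centring its difference was 0.19 (adjusted p = 0.364; range over all alternatives 0.00859 to 1). Its means of 3.57 ± 0.38 in Gr1hi and 4.06 ± 0.07 in Gr1lo (SD, n = 3 each) lay about 1 unit above the background controls, and it has a single probe set.

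The upstream sequences of Gbp2 and Gbp3 are printed because both hold the motif although only Gbp2 rose. They are from RefSeq on GRCm38.p6, plus strand, at chr3:142620413-142620662 for Gbp2 and chr3:142559794-142560043 for Gbp3, with matches to the same motif in capitals.
Gbp2: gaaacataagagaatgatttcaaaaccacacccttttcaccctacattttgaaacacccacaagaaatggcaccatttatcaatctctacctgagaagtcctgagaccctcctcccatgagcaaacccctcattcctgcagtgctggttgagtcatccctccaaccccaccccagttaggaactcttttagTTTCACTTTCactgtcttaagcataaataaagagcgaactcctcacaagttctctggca
Gbp3: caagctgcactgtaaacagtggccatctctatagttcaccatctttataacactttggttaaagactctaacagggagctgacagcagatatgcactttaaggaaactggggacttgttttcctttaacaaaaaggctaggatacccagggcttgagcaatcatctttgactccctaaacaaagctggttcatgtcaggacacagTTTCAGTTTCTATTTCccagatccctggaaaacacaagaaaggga
Gbp2 held 1 match, 59 bases before its start. Gbp3 held 2 overlapping matches, which begin 45 and 39 bases before the start shown, and its other annotated start held none. The motif was also found 53 bases before the start of Gbp7. Presence of the motif in these windows was therefore the same for 2 genes that rose and for 1 that did not.

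Ifi47, an immunity-related GTPase gene on chromosome 11, was the other gene that fell. It read 6.78, 6.60 and 7.66 in Gr1hi, against 8.54, 9.01 and 8.65 in Gr1lo, a difference of -1.72 (SE 0.27, adjusted p = 4.3e-04), or 3.30-fold. The groups did not overlap, and it was lower under each alternative tried, with adjusted p from 8.62e-07 to 0.00506. Igtp, another gene of this GTPase family, read 7.35, 7.61 and 7.80 in Gr1hi, against 5.51, 5.35 and 5.89 in Gr1lo, and rose by 2.00 (adjusted p = 2.98e-05). Irgm1, which encodes a regulator of the other members, averaged 6.52 ± 0.48 in Gr1hi and 5.29 ± 0.32 in Gr1lo and rose by 1.23 (adjusted p = 0.00384). That rise did not pass a test against a 1.5-fold difference (adjusted p = 0.0729). Iigp1 lay at 2.53 ± 0.02 in Gr1hi and 2.44 ± 0.07 in Gr1lo, within the absent-transcript level, and was not tested. The listed genes of this GTPase family thus included 2 that rose, 1 that fell and 1 at background.

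All 5 measured genes of the 2'-5' oligoadenylate synthetase family rose. These proteins sense double-stranded RNA, and the active enzymes make a second messenger that turns on RNase L, while the OAS-like proteins act in other ways. Oasl2 read 8.68, 8.64 and 9.16 in Gr1hi, against 2.59, 2.16 and 2.44 in Gr1lo, and rose by 6.43 (SE 0.22, adjusted p = 1.17e-07). Its Gr1lo level was that of the absent-transcript controls, so the 86.1-fold difference depends on background. Oas2 read 7.62, 8.73 and 8.51 in Gr1hi, against 4.29, 4.67 and 5.08 in Gr1lo, and rose by 3.61 (adjusted p = 9.42e-06). Oas3, the neighbour of Oas2 on chromosome 5, rose by 2.83 to 5.63 ± 0.60 in Gr1hi, against 2.81 ± 0.20 in Gr1lo. Oasl1, which restrains the translation of Irf7 in mice, rose by 2.30 to 5.14 ± 0.16 in Gr1hi, against 2.84 ± 0.43 in Gr1lo. The Gr1lo arrays of Oas3 (3.04, 2.68 and 2.70) and Oasl1 (3.28, 2.41 and 2.82) lay around the highest absent-transcript value of 2.77. The sizes of these rises thus also depend on background. Oas1a was already well above background in Gr1lo at 6.33 ± 0.51 and averaged 8.27 ± 0.58 in Gr1hi, a rise of 1.94. The largest adjusted p of the 5 was 7.09e-04, that of Oas1a.

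The 6 sensors of nucleic acid also rose, by very unequal amounts. Zbp1, a sensor of Z-form nucleic acid that can start cell death, read 6.31, 7.56 and 7.67 in Gr1hi, against 3.92, 3.62 and 4.20 in Gr1lo, a rise of 3.27 (SE 0.35, adjusted p = 3.67e-05). Dhx58, which encodes the RIG-I relative LGP2, rose by 2.63, with 8.04 ± 0.47 in Gr1hi and 5.41 ± 0.49 in Gr1lo. Ddx58, which encodes the RNA sensor RIG-I, rose by 1.92, with 7.62 ± 0.24 in Gr1hi and 5.70 ± 0.37 in Gr1lo. Their relative Ifih1, which encodes MDA5, differed far less.

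Ifih1 read 8.55, 8.76 and 9.12 in Gr1hi, against 8.15, 8.10 and 8.55 in Gr1lo, so that the lowest Gr1hi array barely exceeded the highest Gr1lo array. Its rise of 0.54 (SE 0.19, adjusted p = 0.0317) was the smallest of the 32. It did not pass without Gr1hi replicate 2 (0.0638), Gr1hi replicate 3 (0.118), Gr1lo replicate 1 (0.0995) or Gr1lo replicate 2 (0.0818), nor under control centring (0.302; range over all alternatives 2.05e-04 to 1). Eif2ak2, which encodes the kinase PKR that stops translation on binding double-stranded RNA, rose by 0.61 (adjusted p = 0.0063), with 8.62 ± 0.18 in Gr1hi and 8.01 ± 0.13 in Gr1lo. Adar, which edits adenosine to inosine in double-stranded RNA, rose by 0.78 (adjusted p = 0.00412), with 6.53 ± 0.14 in Gr1hi and 5.75 ± 0.10 in Gr1lo. Under control centring neither passed (adjusted p = 0.165 for Eif2ak2 and 0.0791 for Adar). Both other probe sets of each of these genes were also called higher.

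Each of the 4 interferon regulatory factor genes rose. Irf9, the DNA-binding part of the type I interferon complex, read 8.82, 9.02 and 9.73 in Gr1hi, against 5.66, 6.34 and 6.60 in Gr1lo, a rise of 2.99 (SE 0.29, adjusted p = 2.07e-05), or 7.97-fold. Irf1, an activator induced by interferon gamma in particular, read 10.18, 10.41 and 10.40 in Gr1hi, against 7.83, 7.67 and 8.33 in Gr1lo, a rise of 2.38 (adjusted p = 3.61e-06). Irf7, which drives interferon alpha genes, read 5.45, 5.41 and 5.12 in Gr1hi, against 2.76, 3.34 and 3.17 in Gr1lo. The groups stayed apart in each of these factors. Irf2, which can oppose Irf1 at shared sites, rose by 1.42 (adjusted p = 3.99e-05), with 9.11 ± 0.19 in Gr1hi and 7.69 ± 0.16 in Gr1lo. An antagonist thus rose together with the activators, by a smaller amount than any of the other 3.

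Isg15 encodes a ubiquitin-like protein that is attached to other proteins, and of its partners 1 rose. Usp18, the protease that removes Isg15 and also damps the type I receptor, read 5.79, 6.86 and 7.41 in Gr1hi, against 2.88, 2.09 and 2.94 in Gr1lo. Its rise of 4.05 (SE 0.40, adjusted p = 2.01e-05), or 16.6-fold, depends on a Gr1lo level within that of the absent-transcript controls. Herc6, the main ligase for Isg15 in mice, averaged 5.53 ± 0.38 in Gr1hi and 5.73 ± 0.29 in Gr1lo and did not pass (difference -0.19, adjusted p = 0.529). Its probe sets disagreed, since another one averaged 4.52 ± 0.28 in Gr1hi and 5.88 ± 0.34 in Gr1lo and was called lower in a test of each probe set (difference -1.36, adjusted p = 7.12e-04). Neither of these Herc6 probe sets was higher in Gr1hi.

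The Mx genes encode dynamin-like GTPases that block viruses, and both are inactivated by mutation in C57BL/6 and most other inbred mouse strains. Mx1 read 3.12, 3.56 and 3.41 in Gr1hi, against 3.01, 3.02 and 3.22 in Gr1lo, and did not pass (difference 0.28, adjusted p = 0.12). It passed without Gr1hi replicate 1 (adjusted p = 0.0389) and under median centring (3.3e-04; range over all alternatives 3.3e-04 to 1). Mx2 averaged 1.90 ± 0.16 in Gr1hi and 1.96 ± 0.17 in Gr1lo, below the absent-transcript level in both. Neither gene thus showed a level far from background.

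Of the 11 measured restriction factors and other induced genes 9 rose. Rsad2, which encodes viperin, an enzyme that makes a chain-terminating nucleotide, read 10.38, 10.50 and 10.70 in Gr1hi, against 4.20, 3.31 and 4.57 in Gr1lo. Its rise of 6.50 (SE 0.29, adjusted p = 2.45e-07), or 90.5-fold, was the largest measured, but its order against Oasl2 is not settled, since Oasl2 was at background in Gr1lo. The other Rsad2 probe sets differed by 5.58 and 3.55, the smaller of them with a Gr1lo mean of 2.58 that lay at background. Cmpk2, a nucleotide kinase gene that neighbours Rsad2 on chromosome 12, read 9.73, 9.76 and 10.03 in Gr1hi, against 8.94, 8.53 and 8.75 in Gr1lo, a rise of 1.10 (adjusted p = 1.37e-04). The 2 neighbours therefore rose together, Cmpk2 by 2.14-fold.

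Rtp4, a chaperone of receptors that also binds RNA, read 10.71, 11.02 and 11.15 in Gr1hi, against 5.57, 4.0 and 5.71 in Gr1lo, a rise of 5.87 (SE 0.39, adjusted p = 2.1e-06). Ifi27l2a, a gene of a small membrane protein, read 9.67, 9.82 and 10.27 in Gr1hi, against 4.77, 4.53 and 4.86 in Gr1lo, a rise of 5.20 (SE 0.20, adjusted p = 1.4e-07). Isg20, an RNA exonuclease gene, read 7.64, 7.79 and 8.11 in Gr1hi, against 4.73, 4.94 and 4.96 in Gr1lo, a rise of 2.97 (adjusted p = 1.66e-06). In each of these 3 genes the gap between the groups exceeded the spread within either group.

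The poly(ADP-ribose) polymerase genes Parp9 and Parp14, which take part in the interferon response, rose by 2.28 and 3.11. Parp14 averaged 9.35 ± 0.21 in Gr1hi and 6.23 ± 0.57 in Gr1lo, and Parp9 8.99 ± 0.14 in Gr1hi and 6.70 ± 0.38 in Gr1lo. Xaf1, which promotes apoptosis, rose by 3.35 (adjusted p = 1.75e-05), with 6.98 ± 0.49 in Gr1hi and 3.63 ± 0.52 in Gr1lo. Sp100, of the nuclear bodies that hold PML protein, rose by 0.98 (adjusted p = 0.00433, and 0.168 in a test against a 1.5-fold difference), whereas its other probe set did not pass (difference 0.19). Sp100 averaged 8.98 ± 0.43 in Gr1hi and 8.0 ± 0.24 in Gr1lo.

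Bst2 and Ifi35 did not pass. Bst2 encodes tetherin, which holds budding virus at the cell surface, and read 3.97, 4.38 and 4.14 in Gr1hi, against 4.20, 4.69 and 4.20 in Gr1lo. Its groups overlapped (difference -0.20, adjusted p = 0.424). Ifi35 averaged 10.67 ± 0.19 in Gr1hi and 10.49 ± 0.04 in Gr1lo (difference 0.18, adjusted p = 0.195). Its other 2 probe sets were called higher, by 0.52 and 0.61, and the mean of its probe sets passed (difference 0.44, adjusted p = 0.0087; range over all alternatives 1.04e-04 to 1).

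Tap1, a subunit of the peptide transporter of MHC class I presentation, read 8.09, 8.0 and 8.78 in Gr1hi, against 7.29, 6.98 and 7.45 in Gr1lo, a rise of 1.05 (adjusted p = 0.00337, and 0.115 in a test against a 1.5-fold difference). Cxcl10, a chemokine gene induced strongly by interferon gamma, read 3.87, 3.73 and 4.78 in Gr1hi, against 3.83, 3.87 and 3.76 in Gr1lo, and did not pass (difference 0.31, adjusted p = 0.338). One array, Gr1hi replicate 3, stood about a log2 unit above the other 5, and without it the difference of Cxcl10 was -0.02. It passed under median centring (adjusted p = 0.00328; range over all alternatives 0.00328 to 1).

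The same array was high throughout the set. Gr1hi replicate 3 was the highest of the Gr1hi arrays in 30 of the 40 genes (75%, against 33.6% of all tested genes), and Gr1hi replicate 1 was the lowest in 30 (75%, against 33.5%). The median deviation from the group mean was 0.26 in Gr1hi replicate 3, 0.00 in replicate 2 and -0.24 in replicate 1. Ifit2 and Ifi47, which fell, were also highest in replicate 3 among the Gr1hi arrays. Within Gr1lo, replicate 3 was the highest in 25 genes (62.5%, against 34.8%) and replicate 2 the lowest in 25 (62.5%, against 37.7%), with median deviations of 0.18 in replicate 3, -0.18 in replicate 2 and 0.02 in replicate 1. Over all tested genes the median deviation of each array was within 0.01 of 0. The genes thus moved together from array to array within each group, by amounts far below the median difference between groups. Both replicate 3 arrays are those with Xist transcript, and some markers of other cells were also highest there. The monocyte marker Ccr2 read 7.29 in Gr1hi replicate 3 and 6.07 in Gr1lo replicate 3, and at most 4.91 on the other arrays. Of the 13 measured monocyte and macrophage markers, all except Csf1r, Adgre1 and Vcam1 were highest on replicate 3 in both groups. C1qc, counted there, lay within the absent-transcript level on all arrays. The basophil marker Mcpt8 was likewise highest on replicate 3 in both groups. Csf1r was highest on replicate 3 only in Gr1lo and Adgre1 only in Gr1hi, while Vcam1 was so in neither group. The part of Xist or of such markers in the deviations was not tested.

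**Figure D4:**
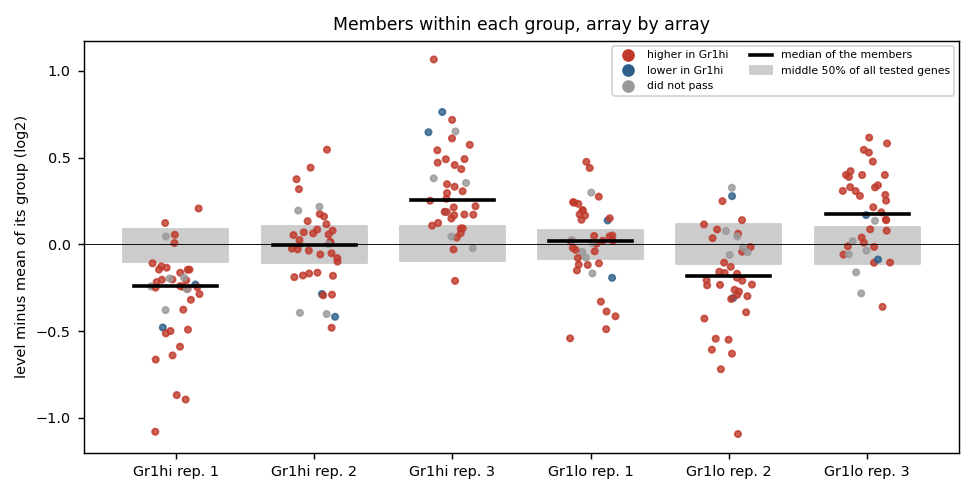
Level of each tested interferon-stimulated gene minus the mean of its own group (log2, vertical axis) on each array, Gr1hi on the left and Gr1lo on the right. Black bars are the medians over the 40 genes, 0.26 in Gr1hi replicate 3 and -0.24 in Gr1hi replicate 1, and grey boxes span the middle 50% of all tested genes.

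Matches to the response element were counted over the whole set, as a description. Promoter windows of 250 bases before to 50 after an annotated start were found for 34 of the 45 genes in RefSeq on GRCm38.p6. A match to that motif on either strand was present in 18 of these 34 (52.9%), against 3.76% of the tested genes on the arrays that have a window and 3.99% of all genes with one. By outcome, it was present in 13 of the 24 genes that rose, in 0 of the 2 that fell and in 3 of the 5 that did not pass, Bst2, Cxcl10 and Gbp3. The gamma-activated site, searched as TTC, any 3 bases and GAA, which reads the same on both strands, was present in 11 of the 34 (32.4%), against 8.48% of the tested genes. Overlapping matches were counted separately in each gene and once per gene in these shares.

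The rest of the pathway was read from lists of ligands, receptors, signalling genes and other induced genes. Their counts stand beside 24.6% called higher and 31.8% lower among all tested genes. Of all 12739 tested genes, 8354 were higher and 2313 lower under median centring, and 1861 and 4848 under control centring. The 8 measured interferon genes stayed near background: Ifnb1, which encodes interferon beta, averaged 2.32 ± 0.22 in Gr1hi and 2.33 ± 0.25 in Gr1lo, and Ifng, which encodes interferon gamma, 1.77 ± 0.22 in Gr1hi and 1.82 ± 0.05 in Gr1lo. The other 6, Ifna1, Ifna2, Ifna4, Ifna5, Ifna11 and Ifnab, averaged at most 2.92 in Gr1hi and 2.98 in Gr1lo. Of the ligands 2 were tested, and neither passed (adjusted p = 0.57 for Ifna1 and 0.667 for Ifna5), though both were called higher under median centring.

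Receptor genes rose in 5 of 6 cases. Ifnar1, a chain of the type I receptor, averaged 7.83 ± 0.45 in Gr1hi and 4.95 ± 0.19 in Gr1lo and rose by 2.88 (adjusted p = 8.55e-06), and its partner chain Ifnar2 rose by 0.80. Ifngr2, a chain of the interferon gamma receptor, averaged 9.37 ± 0.28 in Gr1hi and 6.56 ± 0.31 in Gr1lo and rose by 2.81 (adjusted p = 3.27e-06). The ligand-binding chain Ifngr1 averaged 9.16 ± 0.11 in Gr1hi and 9.39 ± 0.10 in Gr1lo and did not pass (difference -0.23, adjusted p = 0.126). It was called lower under control centring and higher under median centring. Ifnlr1 and Il10rb, the chains of the interferon lambda receptor, rose by 1.73 and 1.04.

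Of 6 tested JAK and STAT genes 5 rose, with Jak1 up by 1.26, Stat6 by 1.19, Stat3 by 1.05 and Jak2 by 0.54. Under control centring 3 of the 6 rose. Of 10 tested genes that lead to interferon production 3 rose (30%) and 1 fell (10%), and the share that rose is near the 24.6% of all tested genes. Median centring gave 8 that rose and 1 that fell, and control centring 3 and 3. Trim25, a ligase that activates RIG-I, rose by 2.27, Myd88, an adaptor of Toll-like receptors, by 1.38 and Irf5 by 1.35. Ikbke, which encodes a kinase of IRF proteins, fell to 5.18 ± 0.11 in Gr1hi, against 8.91 ± 0.33 in Gr1lo (difference -3.73, adjusted p = 5.62e-07). Of 9 tested negative regulators 4 rose and 2 fell, against 7 and 0 under median centring and 2 and 2 under control centring. Socs3, a feedback inhibitor of STAT3 signalling, rose by 5.82 to 10.14 ± 0.10 in Gr1hi, against 4.32 ± 1.09 in Gr1lo, while the phosphatase gene Ptpn2 fell by 0.76.

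Of 42 tested further interferon-induced genes 29 rose and 3 fell, with a median difference of 1.02. Slfn5, counted among those that rose, was tested only through its Gr1hi arrays. Of its Gr1lo arrays 0 lay above the level used to choose tested genes, and its Gr1lo mean of 2.26 lay within the absent-transcript level. The Gr1lo means of Ifi204 (2.55) and Cd274 (2.57) lay there too, so the sizes of their rises depend on background. The smallest p-values were those of Trim25, Trim30a (a rise of 2.64), Slfn8 (2.92) and Slfn1 (4.61), and the 3 that fell were Pml, Psmb10 and Wars, named after their values were seen. Over all these lists, which share some genes, 44 of 71 tested genes rose, Slfn5 among them, and 6 fell. These counts were 63 and 2 under median centring, and 36 and 10 under control centring.

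**Figure D5:**
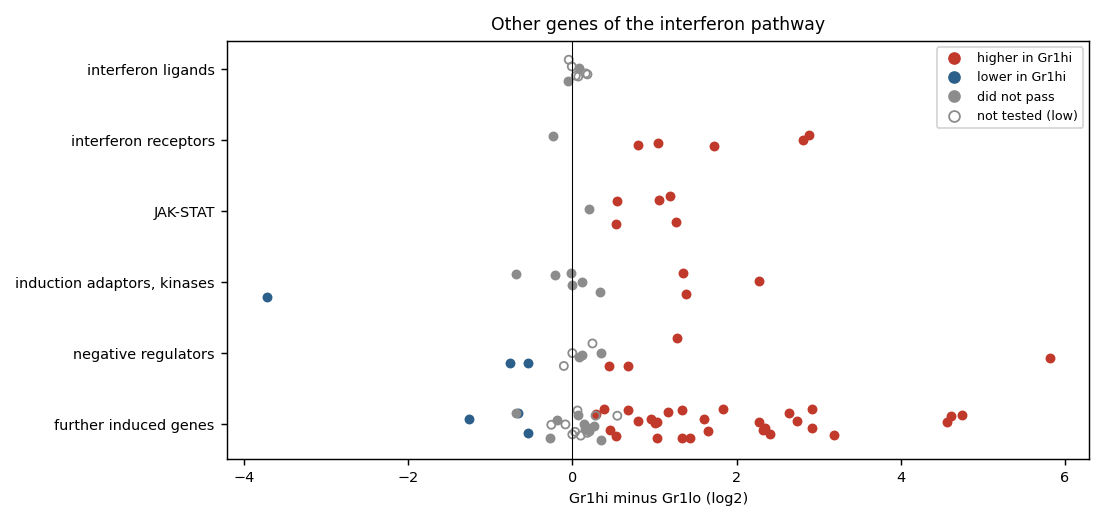
Difference of each measured gene (Gr1hi minus Gr1lo, log2, horizontal axis) in 6 lists of the interferon pathway, with genes that passed the test in red (higher) or blue (lower), others in grey and untested low genes as open circles. Ligand genes cluster at 0, 5 of 6 receptor genes lie to the right, and Ikbke at -3.73 is the point farthest to the left.

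Markers of other cells were read beside these results, and their counts stand beside the same counts over all tested genes given above. Plasmacytoid dendritic cells are a main source of type I interferon, and of 9 measured markers 8 were tested and 1 (Ly6d) was called higher in Gr1hi. Under median centring 7 of the 8 were higher, and under control centring 0 were higher and 1 lower. Siglech, a defining marker, averaged 2.81 ± 0.05 in Gr1hi and 2.77 ± 0.10 in Gr1lo. The log2 of the summed level of the list, which also holds Bst2, ran from 6.81 to 7.33 in Gr1hi and from 6.90 to 7.21 in Gr1lo. Of 11 tested monocyte and macrophage markers 3 rose and 2 fell (5 and 1 under median centring, 2 and 4 under control centring), and the log2 of their sum ran from 11.95 to 12.28 in Gr1hi and from 11.14 to 11.66 in Gr1lo. Csf1r, the receptor of a macrophage growth factor, rose by 4.01 and Adgre1 by 2.99, while Vcam1 fell by 5.25 and F13a1 by 0.98. Csf1r made most of the sum in Gr1hi (mean 11.78), whereas Vcam1 (10.31) and F13a1 (9.80) were highest in Gr1lo. The sums of the 2 groups thus rest on different genes and do not compare the content of such cells. Of 11 measured T and NK cell markers 6 were tested and 5 rose (6 under median centring, 1 under control centring), while Cd3e, Cd3g, Cd2, Ncr1 and Gzma lay within the absent-transcript level on all arrays. The log2 of their sum ran from 8.65 to 8.88 in Gr1hi and from 6.05 to 6.44 in Gr1lo, and Cd3d alone, with 8.49 ± 0.15 in Gr1hi and 4.32 ± 0.69 in Gr1lo, made most of it in Gr1hi, where no other marker of the list exceeded 3.29. Of 7 tested B cell markers 3 rose and 1 fell (6 and 0 under median centring, 1 and 1 under control centring), with sums from 6.31 to 6.66 in Gr1hi and from 6.40 to 6.56 in Gr1lo. The part of such cells in the levels of the interferon-stimulated genes was not tested.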

How the data were processed

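Affymetrix 3' arrays were hybridized with biotin-labelled material from 100 ng of RNA, as the labels' protocols state. Per the submitters' processing notes GCRMA was used, with no version or settings named there, and the deposited table holds log2 values, 1 per probe set and array. GCRMA removes background and equalizes arrays, so values near background carry little information and a global shift would be removed. The table has no detection calls, and the number of arrays limits the precision.

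Of 45101 probe sets, 64 were controls, 34945 had 1 gene symbol, 932 several and 9160 none in the platform annotation. The GRCm38.p6 table of RefSeq held 18032 of the 18193 genes, and 0 symbols were updated. A gene was tested where at least 3 of 6 arrays lay above the array's 40th percentile. Gr1hi and Gr1lo were compared by limma 3.58.1 in R 4.3.3 (eBayes with trend, two-sided, Benjamini-Hochberg over 12739 genes, 4 residual and 5.11 prior degrees of freedom). Counts came from pandas 2.3.3 under Python 3.11.15, and figures from matplotlib 3.10.9. The fit was tested on simulated data with 50 changed genes at each size and 6 false calls. It recovered 16% of changes of 0.5 log2 units, 74% of 1.0, 94% of 2.0 and 98% of 4.0. Small differences may thus have been missed. The members, the gene lists and the alternatives were chosen with earlier results of these data known. Named were all members, every ligand and receptor gene, and up to 4 genes with the smallest p of each other list; any others were named after their values were seen. Alternatives were other filters, probe set rules, variance models, normalizations, thresholds, array weights, the replicate block, and arrays left out.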

Additional observations from a re-analysis of the deposited data

How the results depend on the processing

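Of 799 values of the 40 tested genes under the alternatives, 768 kept their direction and side of the threshold, 14 in 6 genes no longer passed, 10 in 4 genes newly passed and 7 in 5 genes changed sign. The sign changes were all in genes that did not pass in the first place: Herc6 with repeated quantile normalization (0.041) and under median centring (0.48), Gbp3 (0.19) and Bst2 (0.48) under median centring, Ifi35 under control centring (-0.075), and Cxcl10 without both replicate 3 arrays (-0.047). With single arrays left out Cxcl10 ran from -0.019 to 0.50. Of these, Bst2 passed the test after its change of sign (adjusted p = 0.049). The count of members called higher ran from 26 with a test against a 1.5-fold difference to 36, and the count lower was 2 or 3.

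All tested genes called higher and lower were 3128 and 4051, against 8354 and 2313 under median centring, 1861 higher under control centring, and 1355 and 2419 in the test against a 1.5-fold difference. Genes of the pathway lists called lower were 6, against 2, 10 and 2 under the same 3 settings, and the cause was not tested. The labels do not say what a replicate number stands for. Deviations of same-numbered arrays correlated at 0.17, 0.00 and 0.15 over the tested genes, and those of differently numbered arrays at -0.19 to 0.044. Deviations from a mean of 3 arrays constrain one another, and both replicate 3 arrays hold Xist transcript. These values therefore cannot decide whether arrays are paired. The fit with the replicate block called the same 32 members higher and 2 lower. With arrays paired by number the Ifit2 contrast is -6.61 by arithmetic, since pairing cannot change it. An exact test over the signs of the 3 paired differences gave p = 0.25, the smallest it allows. With each array left out, members called higher ran from 31 to 33 and the Ifit2 contrast from -6.73 to -6.54. No pseudocount was needed, since the values are log2.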
